A study of Mus musculus with 12 samples.

Results

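The genes described here were the 3 retinoblastoma-family pocket proteins and the main regulators of the G1 phase of the cell cycle in mouse bone marrow-derived macrophages (BMDMs). The 10 members were Rb1, Rbl1, Rbl2, Ccnd1, Ccnd2, Ccnd3, Ccne1, Ccne2, Cdkn1a and Cdkn1b, chosen by name from the 43453 genes of the count table. Each gene was represented by the transcript row with the highest total count. All 10 passed the filter on low counts. The libraries came from C57BL/6 mice that were homozygous for a loxP-flanked tlr4 allele (tlr4f/f), with or without a cre transgene driven by the lysozyme M promoter (tlr4f/f-lysM-cre), which deletes tlr4 in myeloid cells. Bone marrow was cultured with 50 ng/mL of M-CSF for 7 days, and the BMDMs were then left untreated (LPS-) or given 1 µg/mL of lipopolysaccharide for 6 h (LPS+). Every group thus carried the floxed allele and received M-CSF. There were 3 libraries in each of the 4 groups, and the age of the marrow donors is not given in the sources used here. The paper calls the replicates independent, but nothing states that the 3 libraries of a group came from separate mice or cultures. The p-values thus measure the spread between these samples, which may be technical.

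Pocket proteins bind E2F transcription factors and hold back the genes needed for DNA replication. In G1, the D cyclins activate CDK4 and CDK6 and the E cyclins activate CDK2, and these kinases phosphorylate the pocket proteins and release E2F. The inhibitors p21 (Cdkn1a) and p27 (Cdkn1b) bind these kinases and restrain them. M-CSF drives BMDMs through G1 in large part by inducing D cyclins, and LPS is known to arrest the growth of macrophages.

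The column headings of the table went against 3 marker genes. The deleted gene, Tlr4, stood at 77.0 to 146 CPM (a gene's reads scaled to the size of its library) in the LPS- tlr4f/f libraries and at 94.7 to 117 CPM in the LPS- tlr4f/f-lysM-cre libraries, but at 24.5 to 31.2 CPM under LPS+ tlr4f/f and 24.4 to 27.4 CPM under LPS+ tlr4f/f-lysM-cre. Lyz2, the gene whose locus carries lysM-cre, had at least 5953 CPM in every LPS- library and at most 75.3 CPM in every LPS+ library. Il1b, a cytokine gene induced by LPS, had at least 1633 CPM in every library headed tlr4f/f-lysM-cre and at most 6.95 CPM in every library headed tlr4f/f. The heading LPS- tlr4f/f-lysM-cre may thus have changed places with LPS+ tlr4f/f, so groups are named below by their headings and each comparison is given in both readings. Exchanging these headings turned the LPS comparison in tlr4f/f into the genotype comparison without LPS, and the LPS comparison in tlr4f/f-lysM-cre into the genotype comparison with LPS. The reverse held for the genotype comparisons. The remaining pair of groups kept its names in both readings.

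Sequences before the start sites are shown for Rbl1, whose response differed between the genotypes, and for Cdkn1a, the inhibitor with the widest range, because these members carried the rarer motifs. RefSeq (GRCm38.p6, the build mm10) gave promoters for 6 of the 10 members; Rb1, Ccnd1, Ccnd2 and Ccne2 had no entry. The 250 bases before each start were searched on both strands. The E2F motif (TTTCCCGC, TTTCGCGC, TTTGCCGC or TTTGGCGC) occurred in 1.86% of 32851 promoters and, among the members, in Rbl1. The GC box GGGCGG occurred in 32.7% of promoters and in those of Rbl1, Ccnd3, Ccne1, Cdkn1a (downstream start) and Cdkn1b. A p53 consensus of 20 bases with at most 1 letter off was searched after the Cdkn1a sequence had been seen; 25 of all promoters, or 0.0761%, held a match, and Cdkn1a had 1 at its upstream start. AP-1 (TGANTCA, 6.75% of promoters), NF-kB (0.98%) and GAS (TTCNNNGAA, 7.02%) motifs had no match in the members' windows. The 150 bases shown for Rbl1 lie at chr2:157204535-157204684 on the minus strand, and capitals mark the E2F motif. Those for Cdkn1a lie on the plus strand at chr17:29090826-29090975, before its upstream start, with the p53 match in capitals, and at chr17:29093619-29093768, before its downstream start, with the GC boxes in capitals. All read 5′ to 3′.
Rbl1: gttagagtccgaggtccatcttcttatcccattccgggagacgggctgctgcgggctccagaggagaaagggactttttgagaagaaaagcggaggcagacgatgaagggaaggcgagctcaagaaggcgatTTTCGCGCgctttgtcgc
Cdkn1a, upstream start: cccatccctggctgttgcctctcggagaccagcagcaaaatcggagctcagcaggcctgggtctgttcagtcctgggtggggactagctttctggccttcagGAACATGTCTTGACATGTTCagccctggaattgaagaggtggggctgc
Cdkn1a, downstream start: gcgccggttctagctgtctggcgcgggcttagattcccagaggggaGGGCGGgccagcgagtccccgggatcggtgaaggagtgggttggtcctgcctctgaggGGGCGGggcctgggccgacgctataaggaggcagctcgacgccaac

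Counts on the rows used summed to between 33577440 and 56445989 per library, with a median of 45331200. The spread between replicates differed among groups: the biological coefficient of variation was 37.3% under LPS- tlr4f/f and 34.9% under LPS- tlr4f/f-lysM-cre, against 8.50% under LPS+ tlr4f/f and 8.73% under LPS+ tlr4f/f-lysM-cre. LPS- tlr4f/f replicate 3 stood apart, with 47.2 CPM of Mki67, a gene of dividing cells, against 193 and 291 CPM in the other two libraries of its group. All 8 macrophage markers exceeded 1 CPM on average in each group. The 5 fibroblast and stroma markers summed to 8.72 to 657 CPM under LPS- tlr4f/f and 136 to 1461 CPM under LPS- tlr4f/f-lysM-cre, but to 20.02 to 43.0 CPM in the LPS+ libraries. Neutrophil and granulocyte precursor markers summed to 0.619 to 170 CPM, with Ly6g, the defining marker, at 0 in 3 of the 4 groups. The highest sum was that of LPS- tlr4f/f-lysM-cre replicate 3. In that group the markers other than Ly6g reached 125 CPM (S100a8), 32.9 CPM (S100a9), 6.31 CPM (Ltf), 3.73 CPM (Camp), 1.37 CPM (Mpo) and 0.622 CPM (Elane). Stem and progenitor markers summed to at most 15.3 CPM in a library, dendritic cell markers to at most 6.10 CPM, erythroid markers to at most 3.30 CPM, lymphocyte markers to at most 1.12 CPM, and mast cell and basophil markers to at most 0.147 CPM.

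The pocket proteins followed different orders across the groups. Rbl1, which encodes p107, had 79.8, 127 and 89.5 CPM in the 3 libraries under LPS- tlr4f/f-lysM-cre. It had 67.4, 68.2 and 68.98 CPM under LPS+ tlr4f/f, 48.7, 52.4 and 53.5 CPM under LPS+ tlr4f/f-lysM-cre, and 48.4, 56.6 and 42.2 CPM under LPS- tlr4f/f. The LPS- tlr4f/f-lysM-cre libraries were the 3 highest, and only the lowest pair of groups overlapped. Rbl2, which encodes p130, the pocket protein most associated with quiescence, had its lowest mean in the group where Rbl1 was highest. Its level was 14.0, 23.0 and 32.7 CPM under LPS- tlr4f/f-lysM-cre and 34.0, 33.1 and 33.8 CPM under LPS+ tlr4f/f-lysM-cre. Under LPS- tlr4f/f it was 38.4, 46.7 and 57.4 CPM, and under LPS+ tlr4f/f 53.5, 55.2 and 56.3 CPM. All 6 libraries under tlr4f/f-lysM-cre thus lay below all 6 libraries under tlr4f/f. Rb1, which encodes the founding member pRb, had 39.8, 36.2 and 36.3 CPM under LPS+ tlr4f/f and 26.6, 30.4 and 29.0 CPM under LPS- tlr4f/f. It had 23.4, 23.4 and 21.9 CPM under LPS+ tlr4f/f-lysM-cre and 13.7, 15.8 and 29.4 CPM under LPS- tlr4f/f-lysM-cre. The last of these libraries overlapped the LPS- tlr4f/f group. These are bulk RNA levels, in which fewer cells of a type and less RNA per cell cannot be told apart.

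**Figure D1:**
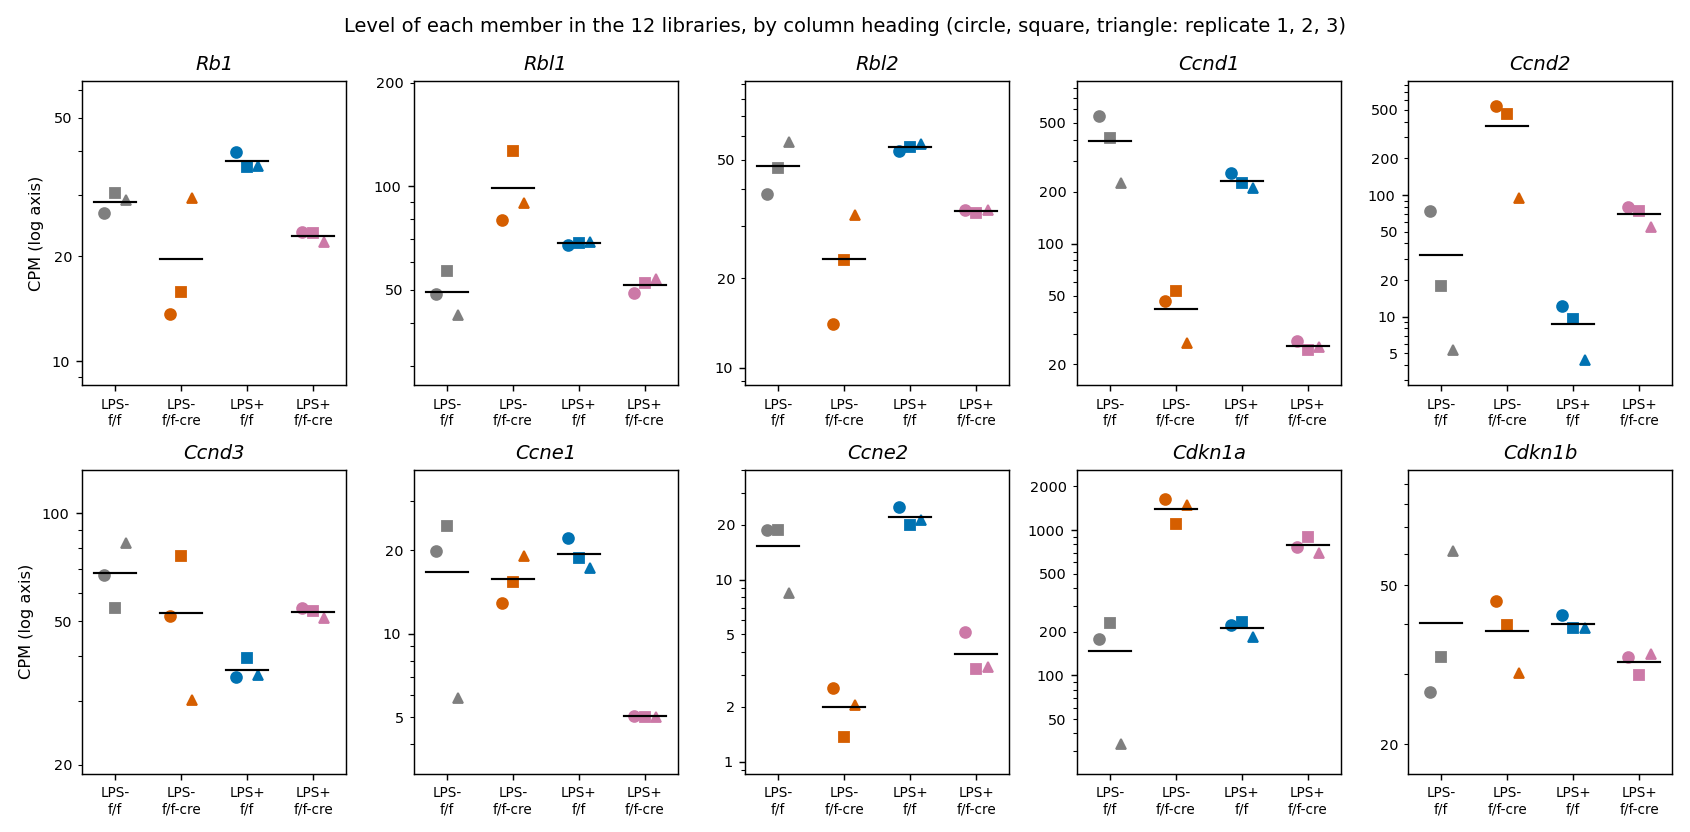
CPM of the 10 members in each of the 12 libraries, grouped by column heading, on a log axis that differs between panels; circles, squares and triangles are replicates 1, 2 and 3, and lines are group means. Ccnd1 and Ccne2 lie lower, and Ccnd2 and Cdkn1a higher, in the 6 libraries under tlr4f/f-lysM-cre than in the tlr4f/f libraries of the same LPS label, and LPS- tlr4f/f replicate 3 lies apart for Ccne1 at 5.87 CPM and Cdkn1a at 33.7 CPM.

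Tests between pairs of headings used edgeR's quasi-likelihood test, with p-values adjusted over all genes tested. Rbl1 was higher under LPS- tlr4f/f-lysM-cre than under LPS- tlr4f/f by 0.99 ± 0.21 on the log2 scale (SE, adjusted p = 0.0128), which is the genotype difference without LPS as headed and the LPS response of tlr4f/f as exchanged. Under LPS+ tlr4f/f-lysM-cre it was lower than under LPS+ tlr4f/f by a log2 fold change of -0.39 ± 0.055 (adjusted p = 4.76e-05). This pair is the genotype difference with LPS as headed and the LPS response of tlr4f/f-lysM-cre as exchanged. Rbl2 was lower in both of these comparisons, with log2 fold changes of -1.04 ± 0.33 (adjusted p = 0.0474) and -0.70 ± 0.054 (adjusted p = 1.93e-07). The former was close to the threshold, since its adjusted p was 0.0607 with RLE size factors in place of TMM scaling, and 0.0547 to 0.120 when any library of the pair other than LPS- tlr4f/f-lysM-cre replicate 3 was left out. Rb1 was lower under LPS+ tlr4f/f-lysM-cre than under LPS+ tlr4f/f, at -0.70 ± 0.067 (adjusted p = 1.59e-06), and its log2 fold change between the LPS- groups was -0.55 ± 0.31 (adjusted p = 0.204).

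Per kilobase of transcript, which allows levels to be compared between genes, Rbl1 held 69.5 ± 9.60% (SD, n = 3) of the pocket protein RNA under LPS- tlr4f/f-lysM-cre. In the other groups it held 38.9 ± 5.54% (LPS- tlr4f/f), 42.0 ± 0.470% (LPS+ tlr4f/f) and 47.2 ± 1.596% (LPS+ tlr4f/f-lysM-cre). The share of Rbl2 was 15.9 ± 4.59% under LPS- tlr4f/f-lysM-cre and between 30.6% and 37.1% on average elsewhere. Within single libraries the count of Rbl1 was 2.74 to 5.71 times that of Rbl2 under LPS- tlr4f/f-lysM-cre, against 0.734 to 1.59 times in the other 9 libraries. A ratio within a library does not depend on how libraries are scaled.

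The D cyclins link growth factor signals to CDK4 and CDK6. Ccnd2 and Ccnd1 had the widest ranges of the 10 members, with highest group means 41.8 and 15.3 times the lowest. Ccnd1 had 546, 407 and 223 CPM under LPS- tlr4f/f and 255, 223 and 211 CPM under LPS+ tlr4f/f. It had 46.5, 52.96 and 26.7 CPM under LPS- tlr4f/f-lysM-cre and 27.2, 24.3 and 25.4 CPM under LPS+ tlr4f/f-lysM-cre. The lowest library headed tlr4f/f was thus well above the highest library headed tlr4f/f-lysM-cre. Ccnd2 was opposite, with 540, 464 and 94.2 CPM under LPS- tlr4f/f-lysM-cre and 80.1, 73.3 and 54.2 CPM under LPS+ tlr4f/f-lysM-cre. It had 73.6, 18.0 and 5.29 CPM under LPS- tlr4f/f and 12.3, 9.59 and 4.39 CPM under LPS+ tlr4f/f. LPS- tlr4f/f replicate 1, the highest of its group, overlapped the LPS+ tlr4f/f-lysM-cre group. Ccnd3, the remaining D cyclin, moved over a smaller range. Its levels were 67.5, 54.5 and 82.4 CPM under LPS- tlr4f/f, 51.6, 76.1 and 30.2 CPM under LPS- tlr4f/f-lysM-cre, 35.1, 39.7 and 35.4 CPM under LPS+ tlr4f/f, and 54.7, 53.4 and 51.2 CPM under LPS+ tlr4f/f-lysM-cre. Its neighbouring groups overlapped throughout the order of levels.

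Ccnd1 was lower under LPS- tlr4f/f-lysM-cre than under LPS- tlr4f/f by a log2 fold change of -3.24 ± 0.42 (9.42-fold, adjusted p = 0.00241). It was lower under LPS+ tlr4f/f-lysM-cre than under LPS+ tlr4f/f by -3.15 ± 0.079 (8.90-fold, adjusted p = 1.73e-11). Ccnd2 was 8.05-fold higher under LPS+ tlr4f/f-lysM-cre than under LPS+ tlr4f/f (log2 fold change 3.01 ± 0.43, adjusted p = 0.00343) and 11.2-fold higher under LPS- tlr4f/f-lysM-cre than under LPS- tlr4f/f (3.48 ± 1.10, adjusted p = 0.0483). The latter had adjusted p-values of 0.0212 to 0.139 with a library left out, among them 0.0725 without LPS- tlr4f/f replicate 3. Ccnd2 was lower under LPS+ than under LPS- tlr4f/f-lysM-cre by -2.38 ± 0.59 (adjusted p = 0.0282). Ccnd3 was higher under LPS+ tlr4f/f-lysM-cre than under LPS+ tlr4f/f by 0.54 ± 0.063 (adjusted p = 9.07e-06). In the LPS- tlr4f/f libraries the stroma marker sums were 657, 60.2 and 8.72 CPM for replicates 1, 2 and 3, and in the LPS- tlr4f/f-lysM-cre libraries they were 922, 136 and 1461 CPM. The former fell in the same order as the group's Ccnd1 and Ccnd2 levels and the latter did not. Their part in the differences was not tested.

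Measured per kilobase, Ccnd1 made up 70.2 ± 11.0% (SD, n = 3) of the D cyclin RNA under LPS- tlr4f/f and 74.8 ± 2.15% under LPS+ tlr4f/f. It made up 13.01 ± 4.82% under LPS- tlr4f/f-lysM-cre, where Ccnd2 held 56.2 ± 14.6%. Under LPS+ tlr4f/f-lysM-cre Ccnd1 made up 14.9 ± 1.00%, and Ccnd3 held the largest share, 60.4 ± 2.39%. On the rows used, the leading D cyclin was thus Ccnd1 in all 6 libraries under tlr4f/f, and Ccnd3 in the 3 headed LPS+ tlr4f/f-lysM-cre. Under LPS- tlr4f/f-lysM-cre, Ccnd2 led in replicates 1 and 2, and in replicate 3 it held 40.4% against 41.0% for Ccnd3. The 3 genes have 2, 3 and 6 transcript rows. Adding rows favours a gene with more of them if reads were counted in several rows, which is not given in the sources used here. When every row was divided by its own length and added, the share of Ccnd1 was 49.2 ± 13.5% against 47.3 ± 15.9% for Ccnd3 under LPS- tlr4f/f, and Ccnd3 led in replicate 3 of that group, while the leading gene was the same in the other 11 libraries. The sum of the D cyclins per kilobase was 141 ± 43.5 CPM per kb under LPS- tlr4f/f, 95.9 ± 50.8 under LPS- tlr4f/f-lysM-cre, 79.2 ± 6.32 under LPS+ tlr4f/f and 44.5 ± 3.21 under LPS+ tlr4f/f-lysM-cre. The ratio of Ccnd1 to Ccnd2 counts was 7.41 to 48.0 in the 6 libraries under tlr4f/f and 0.0861 to 0.468 in the 6 headed tlr4f/f-lysM-cre.

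**Figure D2:**
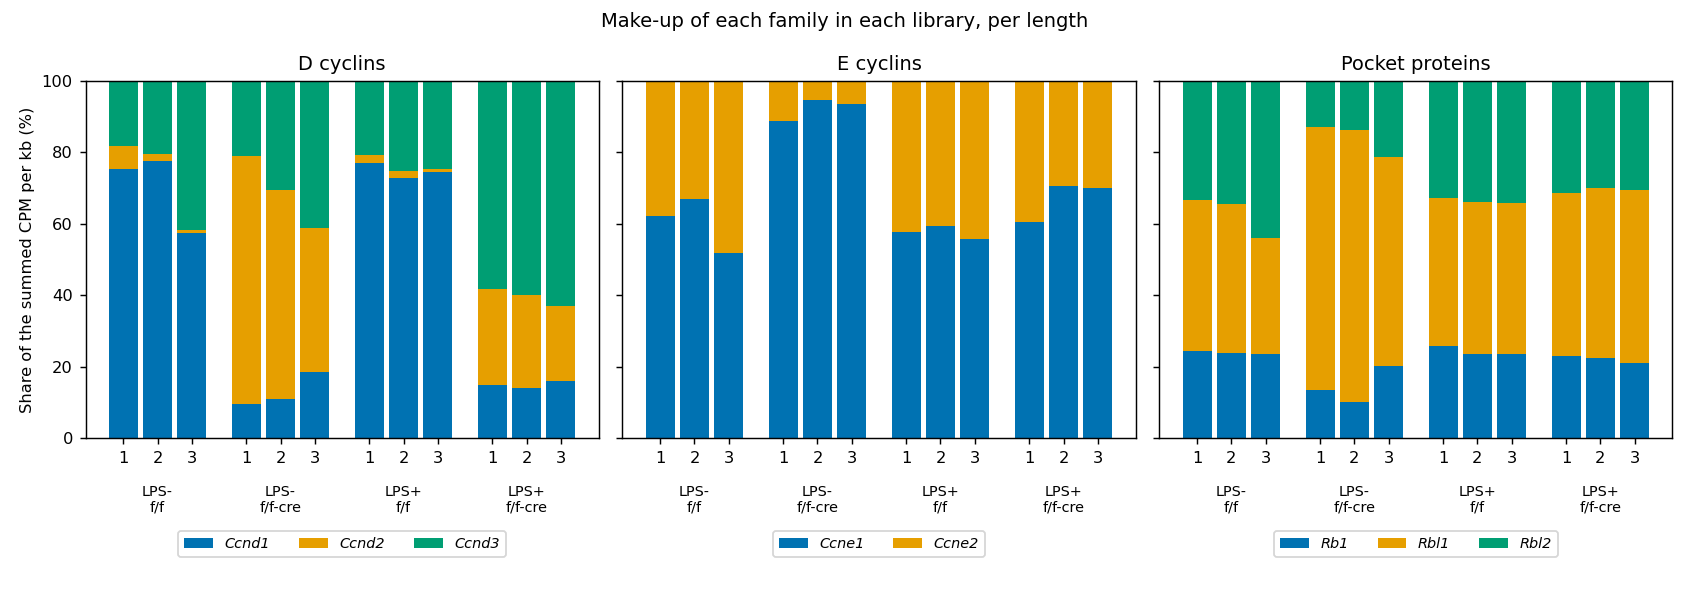
Share of each gene, in percent of the summed CPM per kb, within the D cyclins, the E cyclins and the pocket proteins, for each of the 12 libraries by column heading and replicate number. Ccnd1 fills 57.6% to 77.6% of the D cyclin bars headed tlr4f/f and 9.66% to 18.5% of those headed tlr4f/f-lysM-cre, and the LPS- tlr4f/f-lysM-cre libraries stand out by their Ccne1 and Rbl1 shares.

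E cyclins activate CDK2 late in G1 and are themselves E2F targets. Ccne2 had 18.8, 18.7 and 8.42 CPM under LPS- tlr4f/f and 25.1, 20.01 and 21.2 CPM under LPS+ tlr4f/f. It had 2.52, 1.37 and 2.05 CPM under LPS- tlr4f/f-lysM-cre and 5.13, 3.24 and 3.30 CPM under LPS+ tlr4f/f-lysM-cre. No group of Ccne2 overlapped its neighbour in the order of levels. Ccne1 did not follow that order. It stayed at 12.9, 15.4 and 19.1 CPM under LPS- tlr4f/f-lysM-cre, next to 19.9, 24.4 and 5.87 CPM under LPS- tlr4f/f and 22.2, 18.8 and 17.3 CPM under LPS+ tlr4f/f. The LPS+ tlr4f/f-lysM-cre libraries lay below all of these, at 5.06, 5.02 and 4.999 CPM.

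Ccne2 was lower under LPS- tlr4f/f-lysM-cre than under LPS- tlr4f/f by -2.95 ± 0.42 on the log2 scale (7.73-fold, adjusted p = 0.00315) and lower under LPS+ tlr4f/f-lysM-cre than under LPS+ tlr4f/f by -2.49 ± 0.17 (5.63-fold, adjusted p = 1.12e-06). Ccne1 was lower under LPS+ tlr4f/f-lysM-cre than under LPS+ tlr4f/f by -1.94 ± 0.11 (adjusted p = 1.34e-08) and lower than under LPS- tlr4f/f-lysM-cre by -1.64 ± 0.19 (adjusted p = 0.00275). Between the LPS- groups its log2 fold change was -0.09 ± 0.50 (adjusted p = 0.901). The ratio of Ccne1 to Ccne2 counts was 5.10 to 11.3 under LPS- tlr4f/f-lysM-cre and 0.697 to 1.55 in the other 9 libraries. Ccne1 has 1 transcript row and Ccne2 has 7. Summed over rows the ratio was lower throughout, at 0.865 to 2.00 under LPS- tlr4f/f-lysM-cre and 0.108 to 0.245 elsewhere, and with each row per its own length Ccne2 rather than Ccne1 held the larger share in those 9 libraries. The ratios of LPS- tlr4f/f-lysM-cre stayed above all others either way. Adding rows favours the gene with more of them if reads were counted in several rows, which is not given in the sources used here. Which E cyclin was the more abundant in those 9 libraries was thus not settled.

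The inhibitors differed from each other. Cdkn1a had 1628, 1103 and 1484 CPM under LPS- tlr4f/f-lysM-cre and 765, 902 and 701 CPM under LPS+ tlr4f/f-lysM-cre. It had 223, 233 and 183 CPM under LPS+ tlr4f/f and 178, 228 and 33.7 CPM under LPS- tlr4f/f. Every library headed tlr4f/f-lysM-cre was above every library headed tlr4f/f. Cdkn1b, by contrast, kept within 27.0 to 60.9 CPM in all 12 libraries. Its levels were 27.0, 33.1 and 60.9 CPM under LPS- tlr4f/f, 45.7, 39.7 and 30.2 CPM under LPS- tlr4f/f-lysM-cre, 42.2, 39.1 and 39.1 CPM under LPS+ tlr4f/f, and 33.2, 29.9 and 33.7 CPM under LPS+ tlr4f/f-lysM-cre. Its highest group mean was 1.25 times its lowest, the narrowest range of the 10 members.

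Cdkn1a was higher under LPS- tlr4f/f-lysM-cre than under LPS- tlr4f/f by 3.25 ± 0.70 on the log2 scale (9.51-fold, adjusted p = 0.0133) and, without LPS- tlr4f/f replicate 3, by 2.77 ± 0.29 (adjusted p = 0.00322). It was higher under LPS+ tlr4f/f-lysM-cre than under LPS+ tlr4f/f by 1.90 ± 0.12 (3.73-fold, adjusted p = 3.91e-06). Between the groups headed tlr4f/f-lysM-cre it was lower with LPS+ by -0.82 ± 0.195 (adjusted p = 0.0240). Cdkn1b differed between the LPS+ groups by -0.30 ± 0.067 (adjusted p = 0.00166) and had log2 fold changes of -0.07 ± 0.33 between the LPS- groups and 0.01 ± 0.29 between the groups headed tlr4f/f. The count of Cdkn1a was 20.8 to 49.1 times that of Cdkn1b under the tlr4f/f-lysM-cre headings, and under the tlr4f/f headings 0.554 to 6.90 times. For the 4 ratios given here, 20 two-sided exact permutation tests on log2 ratios were run over 5 pairs of headings with n = 3 in each group. In 14 of them the groups did not overlap and p was 0.1 (adjusted p = 0.143), the smallest value that 3 against 3 allows, so this design could not reach 0.05.

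The question of how LPS acts in tlr4f/f BMDMs, as headed, was addressed by LPS+ tlr4f/f against LPS- tlr4f/f, which as exchanged is the genotype comparison without LPS. With a fold of more than 2 required beside an adjusted p under 0.01, edgeR called 0 of the 10 members, beside 0% of 14712 genes. At an unadjusted p below 0.05 there were 3 members (Rb1, Rbl1 and Ccnd3) and 3626 genes. DESeq2 and limma voom called 0 members here, with 467 and 26 genes in all. With no limit on fold, 0 members passed an adjusted p of 0.05, beside 1.28% of genes (0.605% higher and 0.673% lower). At that threshold DESeq2 passed Rb1 (adjusted p = 0.00525), Rbl1 (0.0133) and Ccnd3 (0.000139), limma passed Rbl1 (0.0432), Ccnd1 (0.0495) and Ccnd3 (0.0207), and edgeR with no filter beyond 1 count passed Ccnd3 (0.0288). For these fits, and for those below with a library left out, the share of all genes passing 0.05 was not counted. These passes thus cannot be set against a background. Ccnd3 was the member nearest the threshold, with a log2 fold change of -0.87 ± 0.155 (adjusted p = 0.0537). For Rb1 it was 0.40 ± 0.091 (adjusted p = 0.0750), and for Rbl1 0.49 ± 0.12 (adjusted p = 0.0882). The groups did not overlap for 4 members, against 35.3% of all genes. Ccnd1, at -0.76 ± 0.32 (adjusted p = 0.209), had an adjusted p of 0.0156 at -1.04 without LPS- tlr4f/f replicate 3. Rb1, Rbl1 and Ccnd3 then also passed 0.05, with adjusted p-values of 0.0427, 0.0393 and 0.0187, and Ccne1 turned from 0.23 to -0.18. The log2 fold change of Ccnd2, -1.88 ± 0.94 (adjusted p = 0.276), was -0.40 (adjusted p = 0.740) without LPS- tlr4f/f replicate 1.

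LPS+ tlr4f/f-lysM-cre against LPS- tlr4f/f-lysM-cre asked for the LPS response without tlr4 as headed, and for the genotype difference with LPS as exchanged. Here 1 member, Ccne1, was called lower, beside 6.09% of 14245 genes (2.42% higher and 3.66% lower). At an adjusted p below 0.05 with no limit on fold, 4 members (Rbl1, Ccnd2, Ccne1 and Cdkn1a) were lower and none higher, beside 26.7% of genes (14.2% lower and 12.5% higher). At -0.92 ± 0.17 (adjusted p = 0.0117), Rbl1 was the pocket protein among them. Ccne2 was on the higher side at 0.98 ± 0.33 (adjusted p = 0.0711). The groups did not overlap for 6 members, against 48% of genes. Leaving out LPS+ tlr4f/f-lysM-cre replicate 1, 2 or 3 removed the call of Ccne1, with adjusted p-values of 0.0262 to 0.0268, and left 4, 7 and 15 genes called in all. Without LPS- tlr4f/f-lysM-cre replicate 1, Rbl1 was called as well (-1.07, adjusted p = 0.00844), and without replicate 3 of that group, Ccnd2 (-2.86, adjusted p = 0.00131). Other omissions took these members past 0.05: with a library left out, the highest adjusted p was 0.0676 for Rbl1, 0.115 for Ccnd2 and 0.110 for Cdkn1a.

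LPS- tlr4f/f-lysM-cre against LPS- tlr4f/f, the genotype comparison without LPS as headed and the LPS response of tlr4f/f as exchanged, had 2 members called lower, Ccnd1 and Ccne2, beside 17.1% of 14649 genes (7.81% lower and 9.26% higher). At an adjusted p below 0.05, 6 members passed beside 37.3% of genes (17.9% higher and 19.4% lower): Rbl1, Ccnd2 and Cdkn1a were higher, and Rbl2, Ccnd1 and Ccne2 lower. For these 6 the groups did not overlap, as for 54.1% of all genes. Without LPS- tlr4f/f-lysM-cre replicate 1 or 2 no member was called, since the adjusted p of Ccnd1 and Ccne2 rose to 0.0105 to 0.0131. Without LPS- tlr4f/f-lysM-cre replicate 3, LPS- tlr4f/f replicate 1 or LPS- tlr4f/f replicate 2, Ccnd1 alone was called, and without LPS- tlr4f/f replicate 3 the calls were Ccnd1, Ccne2 and Cdkn1a.

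The comparison of LPS+ tlr4f/f-lysM-cre with LPS+ tlr4f/f, which is the genotype difference with LPS as headed and the LPS response of tlr4f/f-lysM-cre as exchanged, gave the most calls of members with edgeR on the 6 libraries compared, though not in a single fit of all 12 (3 members, against 6 for LPS- tlr4f/f-lysM-cre against LPS- tlr4f/f). Ccnd2 and Cdkn1a were called higher and Ccnd1, Ccne1 and Ccne2 lower, 5 of 10 members beside 21.8% of 14551 genes (10.8% higher and 10.9% lower). All 10 members passed an adjusted p of 0.05, beside 61.4% of genes (30.5% higher and 31% lower), with Ccnd3 also higher and Rb1, Rbl1, Rbl2 and Cdkn1b also lower. None of the 10 overlapped between the groups, as for 67.5% of all genes. The call of Ccnd2 was lost without any of the LPS+ tlr4f/f-lysM-cre replicates or without LPS+ tlr4f/f replicate 2, with adjusted p-values of 0.0105 to 0.0178.

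LPS+ tlr4f/f-lysM-cre against LPS- tlr4f/f, groups that differ in genotype and in LPS in either reading, had 2 members called lower, beside 13.4% of 14595 genes (6.45% lower and 6.93% higher). These were Ccnd1, 15.3-fold lower (log2 fold change -3.93 ± 0.35, adjusted p = 0.000682), and Ccne2, 3.92-fold lower (-1.97 ± 0.37, adjusted p = 0.00823). At an adjusted p below 0.05, 6 members passed, beside 40.7% of genes (20.4% in each direction), with Cdkn1a higher (2.43 ± 0.66, adjusted p = 0.0292) and Rb1, Rbl2 and Ccne1 lower. The groups did not overlap for 6 members, against 57.9% of genes. Without LPS- tlr4f/f replicate 3, Ccne1 (-2.14, adjusted p = 0.000161) and Cdkn1a (1.96, adjusted p = 0.000568) were called too. Leaving out any other library of the pair left Ccnd1 as the only call, with an adjusted p of 0.0183 to 0.0436 for Ccne2. The highest adjusted p with a library left out was 0.113 for Ccne1, 0.0859 for Cdkn1a, 0.137 for Rb1 and 0.129 for Rbl2, all above 0.05. These 5 comparisons share libraries, so that their results are not independent of each other.

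**Figure D3:**
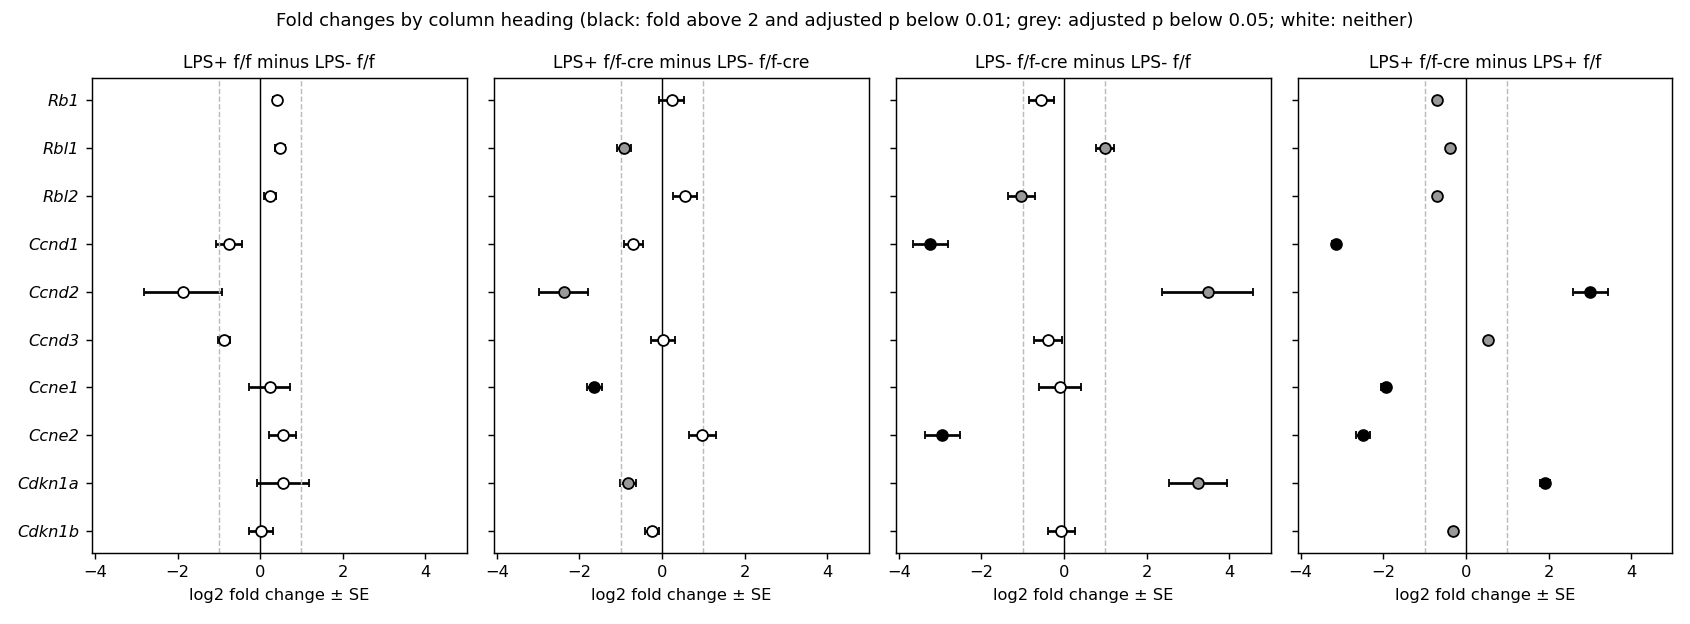
Log2 fold change (horizontal axis, bars are SE) of the 10 members in the 4 comparisons between headings that differ in LPS or in genotype; black, grey and white points mark a fold above 2 with an adjusted p below 0.01, an adjusted p below 0.05, and neither. Both right-hand panels, of tlr4f/f-lysM-cre minus tlr4f/f, hold Ccnd1 near -3 (-3.24 and -3.15) and Ccnd2 and Cdkn1a on the higher side.

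Whether the 2 responses differ was tested by the interaction of genotype and LPS, which is the same number in both readings. At an adjusted p below 0.05, 1 member differed, beside 6.99% of 15792 genes (4.13% higher and 2.86% lower). Rbl1 had an interaction of -1.41 ± 0.228 on the log2 scale (edgeR, adjusted p = 0.00800). As headed it was 0.49 higher with LPS in tlr4f/f, which did not pass 0.05 (edgeR, adjusted p = 0.0882), and -0.92, thus lower, in tlr4f/f-lysM-cre. Leaving out each library in turn kept this between -1.53 and -1.18, with adjusted p-values of 0.00458 to 0.0347. Ccne1 had an interaction of -1.87 ± 0.56 (adjusted p = 0.0718), which without LPS- tlr4f/f replicate 3 was -1.44 ± 0.25 (adjusted p = 0.0109) and without LPS- tlr4f/f replicate 2 was -2.24 (adjusted p = 0.0387). Without LPS- tlr4f/f-lysM-cre replicate 2, Ccnd3 passed at 1.27 (adjusted p = 0.0325), against 0.90 ± 0.375 (adjusted p = 0.175) with all libraries. For Cdkn1a it was -1.37 ± 0.705 (adjusted p = 0.277), and for Ccnd1 0.06 ± 0.43 (adjusted p = 0.953). Of the genes that differed, 59.1% were on the higher side with TMM scaling and 47.7% with RLE size factors.

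Around the members, genes of S-phase entry that E2F activates followed the D1 and E2 cyclins. Most of these 20 genes act in replication licensing, DNA synthesis and nucleotide supply, and the list also holds the cyclin gene Ccna2 and the DNA methylation genes Dnmt1 and Uhrf1. Under LPS+ tlr4f/f-lysM-cre against LPS+ tlr4f/f, 19 of the 20 were called lower, beside 10.9% of genes called lower, with a median log2 fold change of -1.602 against -0.02 over all genes tested. The loading factor Cdc6 had the largest change at -2.56 ± 0.17 (adjusted p = 6.52e-08), and Tyms, a thymidylate synthase gene, was the member not called at -0.14 (adjusted p = 0.271). Under LPS- tlr4f/f-lysM-cre against LPS- tlr4f/f, 9 of the 20 were called lower and 17 were lower at an adjusted p below 0.05, beside 7.81% and 19.4% of genes. The median was -2.34 against -0.08, and Cdc6 was at -3.63 ± 0.45 (adjusted p = 0.00199). The list summed to 1434 to 2325 CPM in the 6 libraries under tlr4f/f and to 518 to 742 CPM in the 6 headed tlr4f/f-lysM-cre. Between the 2 groups headed tlr4f/f its median was -0.03, the same as over all genes. Between those headed tlr4f/f-lysM-cre the median was 0.63 against 0.03, with 6 of the 20 higher and 1 lower at an adjusted p below 0.05, beside 12.5% and 14.2% of genes. There Ccna2, a cyclin of S phase, was called higher with LPS+ at 2.35 ± 0.29 (adjusted p = 0.00328) and the licensing factor Cdt1 lower at -1.16 ± 0.14 (adjusted p = 0.00344). Against LPS- tlr4f/f, 12 of the 20 were called lower under LPS+ tlr4f/f-lysM-cre, beside 6.45% of genes, and 15 were lower at an adjusted p below 0.05, beside 20.4%. The calls were led by the helicase subunit Mcm2 at -2.95 ± 0.17 (adjusted p = 0.000214). The interaction passed 0.05 for 2 of the 20, both higher, with Mcm3 at 1.40 ± 0.22 (adjusted p = 0.00783).

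**Figure D4:**
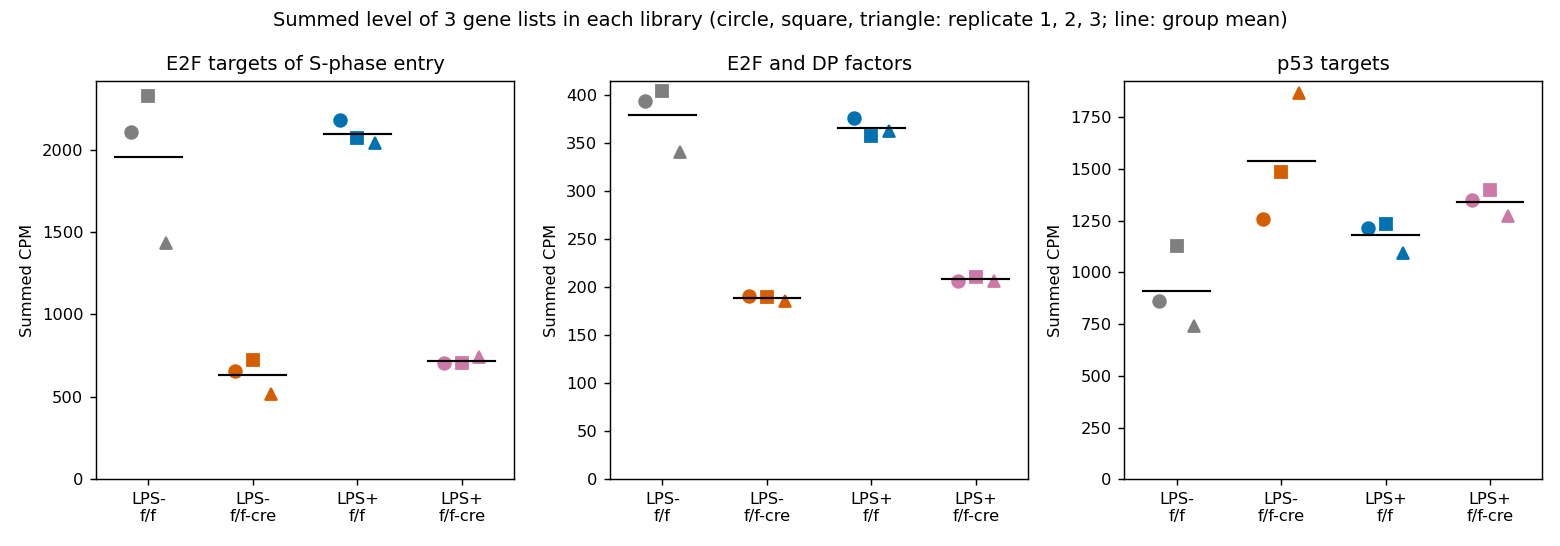
Summed CPM of the E2F targets of S-phase entry, the E2F and DP factors and the p53 targets in each library by column heading, on axes that start at 0; circles, squares and triangles are replicates 1, 2 and 3, and lines are group means. E2F target sums of the 6 libraries under tlr4f/f (1434 to 2325 CPM) lie above those of the 6 headed tlr4f/f-lysM-cre (518 to 742 CPM). The p53 target sums separate the other way, with 739 to 1235 CPM under tlr4f/f and 1258 to 1867 CPM under tlr4f/f-lysM-cre. Abundant genes weigh most in a sum: from LPS+ tlr4f/f to LPS+ tlr4f/f-lysM-cre its mean went from 1181 to 1340 CPM, and Plk2 alone from 384 to 543 CPM. In that comparison 7 of the 14 p53 targets were on the higher side, with a median log2 fold change of -0.15.

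The 10 E2F and DP factors include the partners of the pocket proteins. In each comparison of tlr4f/f-lysM-cre with tlr4f/f headings, 5 were called lower and none higher. Of all genes, 7.81% were called lower with the LPS- headings and 10.9% with the LPS+ headings. At an adjusted p below 0.05, 1 was higher and 7 lower with LPS-, beside 17.9% and 19.4% of genes. With LPS+, 2 were higher and 7 lower, beside 30.5% and 31%. Among those on the higher side, E2f4 had means of 63.8 against 47.6 CPM with LPS- and 48.6 against 39.7 CPM with LPS+. E2f5 had 18.0 against 8.28 CPM and 13.9 against 9.95 CPM. E2f2, an activator E2F, had the largest change of the list, at -5.96 ± 0.71 (adjusted p = 0.00190) with the LPS- heading and -3.64 ± 0.087 (adjusted p = 6.33e-12) with the LPS+ heading. Its level was 36.7 to 94.0 CPM in the libraries under tlr4f/f and 0.249 to 3.27 CPM in those headed tlr4f/f-lysM-cre. E2f6, a repressor E2F that does not bind pocket proteins, was called higher under LPS+ than under LPS- tlr4f/f-lysM-cre at 1.29 ± 0.22 (adjusted p = 0.00974), and its interaction was 1.18 ± 0.24 (adjusted p = 0.0170). Against LPS- tlr4f/f, 3 of the 10 were called lower under LPS+ tlr4f/f-lysM-cre (beside 6.45% of genes), with E2f2 at -4.33 ± 0.38 (adjusted p = 0.000661). At an adjusted p below 0.05, 7 were lower and 1 higher there, beside 20.4% of genes in each direction.

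Among the 12 G1 kinases and their partners, 4 were called lower under LPS- tlr4f/f-lysM-cre against LPS- tlr4f/f, 3 were called lower under LPS+ tlr4f/f-lysM-cre against LPS+ tlr4f/f, and none was called higher in either, beside 7.81% and 10.9% of genes called lower. Cdc25b, a phosphatase that activates cyclin-dependent kinases, led both, at -3.63 ± 0.37 (adjusted p = 0.00117) and -1.88 ± 0.20 (adjusted p = 0.000339), and was called higher under LPS+ than under LPS- tlr4f/f-lysM-cre at 2.59 ± 0.35 (adjusted p = 0.00432). Its interaction was 1.72 ± 0.41 (adjusted p = 0.0317). The kinase Cdk2, the partner of the E cyclins, was lower under LPS+ tlr4f/f-lysM-cre than under LPS- tlr4f/f at -1.48 ± 0.12 (adjusted p = 0.000570). In that comparison 2 of the 12 were called lower, beside 6.45% of genes, while 7 of the 12 were on the higher side. At an adjusted p below 0.05, 3 were higher and 4 lower, beside 20.4% of genes in each direction. Fbxw7, a ubiquitin ligase subunit that targets cyclin E, had an interaction of -0.99 ± 0.17 (adjusted p = 0.00971). Of the 5 other CDK inhibitors, Cdkn2c, which encodes p18, was called lower in both comparisons of tlr4f/f-lysM-cre with tlr4f/f headings, at -2.98 ± 0.52 (adjusted p = 0.00652) with LPS- and -1.81 ± 0.087 (adjusted p = 5.50e-09) with LPS+. It was called higher under LPS+ than under LPS- tlr4f/f-lysM-cre, at 2.35 ± 0.31 (adjusted p = 0.00432).

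Of the 7 genes for the MuvB core, through which Rbl1 and Rbl2 repress cell-cycle genes in the DREAM complex, and for its partners, 2 (Mybl2 and Foxm1) were called lower under LPS+ tlr4f/f-lysM-cre against LPS+ tlr4f/f, beside 10.9% of genes. Mybl2, which encodes the B-MYB partner of MuvB, was at -2.88 ± 0.14 (adjusted p = 2.60e-09) there and at -2.78 ± 0.55 (adjusted p = 0.00985) against LPS- tlr4f/f. Of the 14 p53 targets, a list without Cdkn1a, 1 was called higher and 1 lower under LPS- tlr4f/f-lysM-cre against LPS- tlr4f/f, and at an adjusted p below 0.05 there were 5 higher and 1 lower. The shares over all genes were 9.26% and 7.81% called, and 17.9% and 19.4% at an adjusted p below 0.05, so that the called counts were near the background. Mdm2, the negative regulator of p53, was called higher under LPS- tlr4f/f-lysM-cre than under LPS- tlr4f/f at 1.45 ± 0.25 (adjusted p = 0.00546), and its interaction was -1.13 ± 0.25 (adjusted p = 0.0251). Sesn1 was called lower in the same comparison at -4.43 ± 0.25 (adjusted p = 0.000410) and higher under LPS+ than under LPS- tlr4f/f-lysM-cre at 3.55 ± 0.22 (adjusted p = 0.000880), with an interaction of 3.26 ± 0.23 (adjusted p = 0.000311). Under LPS+ tlr4f/f-lysM-cre against LPS+ tlr4f/f none of the 14 was called higher and 2 were called lower, beside 10.8% and 10.9% of genes. Trp53inp1 was at -2.005 ± 0.12 (adjusted p = 8.08e-08). At an adjusted p below 0.05, 5 were higher and 7 lower there, beside 30.5% and 31% of genes.

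The genes most alike each member were taken by Pearson's r of log2 CPM over the 12 libraries among 15791 other genes, a description in which the points share libraries and group differences. For Ccnd1 the nearest was Oraov1 (r = 0.996), and for Ccnd2 an antisense gene, ENSMUSG00000107379.1 (r = 0.975). Both lie over the downstream end of that member on the opposite strand, with 1100 and 372 bases of shared exon in the mm10 annotation. Ccnd1 lies at chr7:144929931-144939925 and Oraov1 at chr7:144915100-144931701, while Ccnd2 lies at chr6:127125162-127152193 and the antisense gene at chr6:127122966-127126155. Strand use in the counting is not given in the sources used here, so reads of these pairs cannot be told apart. Oraov1 had 78.0 to 178 CPM under LPS- tlr4f/f and 14.5 to 16.1 CPM under LPS+ tlr4f/f-lysM-cre, and the antisense gene had 3.61 to 19.9 CPM under LPS- tlr4f/f-lysM-cre and at most 0.567 CPM under LPS+ tlr4f/f. The other members that share exon bases with a gene on the opposite strand were Rb1, Rbl2, Ccnd3, Ccne2 and Cdkn1a. Nearest to Cdkn1a was Mmp13 (r = 0.992), to Ccne2 Sept9 (0.980), to Ccne1 Epb41l2 (0.941), to Ccnd3 Mpnd (0.931), and to Cdkn1b ENSMUSG00000110010.1 (0.910). Among the pocket proteins the nearest genes were Fam76b for Rb1 (0.988), Cyth3 for Rbl1 (0.974) and Rmi1 for Rbl2 (0.984).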

How the data were processed

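RNA from 12 BMDM libraries was sequenced, with 3 libraries in each of 4 groups. The authors trimmed reads with Trimmomatic 0.36, aligned them with HISAT2 against mm10, used HTSeq for counting and deposited raw read counts per transcript row together with a transcript length in bases, which the file headers name. The sources name both removal of rRNA and polyA RNA as the RNA sequenced, and strand use in counting is not given in the sources used here. Samples were grouped by their labels, and 0 other columns of per-sample values were present.

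For each gene symbol the row with the highest total was kept. Counts were scaled by TMM, and each pair of groups was tested separately with edgeR 4.0.16 (filterByExpr, glmQLFit and glmQLFTest, R 4.3.3) on the 6 libraries compared. The interaction was tested on all 12. P-values were adjusted by Benjamini-Hochberg over all genes tested. A gene was called at a fold above 2 and an adjusted p below 0.01, and for the interaction at an adjusted p below 0.05. SE is that of the log2 fold change. CPM used TMM library sizes, and CPM per kb was CPM divided by the transcript length. Ratios were compared by exact permutation tests. The steps were tested on simulated data in which 200 genes changed by 2 on the log2 scale. Of these, 32.5% were called in LPS- tlr4f/f-lysM-cre against LPS- tlr4f/f and 92.5% in LPS+ tlr4f/f-lysM-cre against LPS+ tlr4f/f. In the remaining pairs 65% to 68% were called, and false calls numbered 1 to 7. Counts of calls are thus not alike in power between pairs. Promoter sequences were read from RefSeq's table by gene symbol, with Python 3.11.15.

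The members and gene lists were chosen with earlier results of these data known. Named genes were the members, the 3 genes that check the headings, the called gene with the largest change in each direction per list and comparison, and, for likeness, those with the highest correlation (Pearson's r) in log2 CPM, where a prior count of 2 was added. Tyms, Foxm1, Mki67, Ly6g and the other neutrophil and granulocyte precursor markers, E2f4, E2f5 and Plk2 were named after their values were seen. Alternatives were DESeq2 1.42.0, limma 3.58.1 voom with sample quality weights, RLE size factors, a filter of at least 10 counts in every library or of 1 count in total, a single fit of all libraries, the replicate block, other thresholds, summed transcript rows, exchanged headings and leaving out each library.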

Additional observations from a re-analysis of the deposited data

Results flagged for a closer look

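The response of Rbl1 differed between the genotypes by the test of the difference itself. The interaction was -1.41 on the log2 scale (edgeR's quasi-likelihood test over all 12 libraries, adjusted p = 0.00800). At an adjusted p below 0.05, 1 of the 10 members passed, beside 6.99% of 15792 genes. The count of members was thus near the background. As headed, Rbl1 was 0.49 higher on the log2 scale with LPS in tlr4f/f, which did not pass 0.05 (edgeR, adjusted p = 0.0882). It was lower by -0.92 in tlr4f/f-lysM-cre (edgeR, adjusted p = 0.0117). The groups did not overlap in either comparison, as for 35.3% and 48% of all genes. As exchanged, it was 0.99 higher with LPS in tlr4f/f and lower by -0.39 in tlr4f/f-lysM-cre. These pairs were again without overlap, as for 54.1% and 67.5% of all genes. The LPS- tlr4f/f-lysM-cre libraries, at 79.8 to 127 CPM, were the highest of the 4 groups. The value of the interaction is the same whether or not the 2 headings are exchanged.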

How the results depend on the processing

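Over the members' values, 478 of those under alternatives other than exchanged headings and left-out libraries kept their direction and their side of the threshold, 35 newly passed it, 5 no longer did and 12 changed sign. With a library left out these numbers were 376, 8, 19 and 17. The members called in LPS+ tlr4f/f-lysM-cre against LPS- tlr4f/f-lysM-cre numbered 2 with DESeq2 (2006 genes in all against 867), 0 in a single fit of 12 libraries, 4 at an adjusted p below 0.05, and 0 to 2 with a library left out. In LPS- tlr4f/f-lysM-cre against LPS- tlr4f/f they numbered 5 with DESeq2 (3996 genes against 2500), 6 in a single fit (4180 genes), 6 at an adjusted p below 0.05, and 0 to 3 with a library left out (1039 to 1683 genes). In LPS+ tlr4f/f-lysM-cre against LPS+ tlr4f/f they numbered 3 in a single fit (2072 genes against 3165), 10 at an adjusted p below 0.05, and 4 to 5 with a library left out. In LPS+ tlr4f/f-lysM-cre against LPS- tlr4f/f they numbered 4 with DESeq2 (2967 genes against 1952), with limma and in a single fit, 6 at an adjusted p below 0.05, and 1 to 4 with a library left out (593 to 2287 genes). For the interaction they numbered 2 with DESeq2 (2185 genes against 1104) and with limma, and 1 to 2 with a library left out (368 to 1539 genes). It called 733 genes with no filter beyond 1 count and 157 at a fold above 2 and an adjusted p below 0.01. In LPS+ tlr4f/f against LPS- tlr4f/f, where 0 genes were called, DESeq2 called 467 genes, a single fit 79, the fit with no filter beyond 1 count 34, limma 26 and the looser threshold 188, and 0 to 182 were called with a library left out. Levels and between-gene ratios depended on the row taken for a gene: with rows summed, the ratio of Cdkn1a to Cdkn1b was 39.1 to 92.9 under the tlr4f/f-lysM-cre headings, and 14 of the 20 comparisons of ratios were again without overlap. Shares with every row per its own length were chosen after seeing the data. The cause of the shifts in calls was not tested, apart from the looser or stricter thresholds and the smaller number of libraries.

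Same-numbered replicates correlated in their deviations from the group means by 0.472, 0.340 and 0.014 in LPS- tlr4f/f-lysM-cre against LPS- tlr4f/f. In LPS+ tlr4f/f-lysM-cre against LPS+ tlr4f/f the values were 0.058, 0.072 and 0.190, and every library correlated best with its own number. In no comparison did every pair exceed 0.1. The labels do not say whether libraries of the same number share a donor or a preparation, and these correlations cannot decide it. With the replicate block, 0 members (212 genes) were called in LPS+ against LPS- tlr4f/f-lysM-cre and 1 (921 genes) in LPS+ tlr4f/f-lysM-cre against LPS- tlr4f/f, and in the other comparisons the members called numbered 0, 3, 5 and 1. Under the block, Cdkn1b (0.0023) and Ccne1 (0.087) changed sign in LPS- tlr4f/f-lysM-cre against LPS- tlr4f/f.

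With the headings exchanged, the comparisons trade places by construction. The members called then numbered 2 for the LPS response of tlr4f/f, 5 for that of tlr4f/f-lysM-cre, 0 for genotype without LPS and 1 for genotype with LPS. For the response of tlr4f/f the log2 fold changes that turned became -0.55 for Rb1, -1.04 for Rbl2, 3.48 for Ccnd2, -0.091 for Ccne1, -2.95 for Ccne2 and -0.071 for Cdkn1b. For that of tlr4f/f-lysM-cre they became -0.70 for Rb1, -0.70 for Rbl2, 3.01 for Ccnd2, -2.49 for Ccne2 and 1.90 for Cdkn1a. For genotype without LPS they became 0.40 for Rb1, 0.23 for Rbl2, -1.88 for Ccnd2, 0.23 for Ccne1, 0.54 for Ccne2 and 0.011 for Cdkn1b. For genotype with LPS they became 0.23 for Rb1, 0.54 for Rbl2, -2.38 for Ccnd2, 0.98 for Ccne2 and -0.82 for Cdkn1a.

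The other changes of sign were in members that had not passed the test, and the cause was not tested. DESeq2 and RLE size factors both gave -0.013 for Ccnd3 in LPS+ against LPS- tlr4f/f-lysM-cre, 0.0081 for Cdkn1b in LPS- tlr4f/f-lysM-cre against LPS- tlr4f/f, and -0.016 for the interaction of Ccnd1. Limma gave 0.25 for Cdkn1b in LPS- tlr4f/f-lysM-cre against LPS- tlr4f/f, -0.0028 for Rbl1 in LPS+ tlr4f/f-lysM-cre against LPS- tlr4f/f and 0.026 for the interaction of Rb1. The single fit gave -0.0082 for Cdkn1b in LPS+ against LPS- tlr4f/f. With a library left out, the log2 fold changes that crossed 0 ranged from -0.20 to 0.43 for Cdkn1b and -0.18 to 0.61 for Ccne1 in LPS+ against LPS- tlr4f/f, from -0.27 to 0.38 for Ccnd3 in LPS+ against LPS- tlr4f/f-lysM-cre, from -0.51 to 0.29 for Ccne1 and -0.29 to 0.34 for Cdkn1b in LPS- tlr4f/f-lysM-cre against LPS- tlr4f/f, and from -0.026 to 0.19 for Rbl1 and -0.54 to 0.10 for Cdkn1b in LPS+ tlr4f/f-lysM-cre against LPS- tlr4f/f. The interaction ranged from -0.24 to 0.36 for Ccnd1, -1.96 to 0.0035 for Ccnd2 and -0.35 to 0.26 for Rb1.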
